A study of Caenorhabditis elegans with 4 samples.

Results

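The combined list of CEH-39 binding regions in the Caenorhabditis elegans embryo placed 383 of its regions on chromosome IV, which is 15.2% of the list, and the other 2132 on the 5 other nuclear chromosomes. The 383 were taken by position alone, as all regions of that list on IV. Binding was mapped by chromatin immunoprecipitation and sequencing (ChIP-seq) in strain OP169, whose unc119(ed3) animals carry the transgene wgIs169, a ceh-39 fusion with TY1, EGFP and FLAG tags that also holds unc119 and was introduced by bombardment. Both sexes were present in the population, which was grown at 20 degrees Celsius and fixed with 2% formaldehyde. Anti-GFP antibodies gave 2 ChIP libraries. The 2 libraries of input DNA share the strain, stage and growth, and they were not analyzed here. All libraries come from the tagged strain, so none shows what anti-GFP antibodies recover without the fusion. The labels do not say whether the 2 ChIP replicates came from separate cultures.

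CEH-39 belongs to the ONECUT homeodomain class of transcription factors, which bind DNA through a cut domain together with a homeodomain. In C. elegans it is one of the X signal elements, the X-encoded factors that act on the sex-determination switch gene xol-1 in early embryos. Chromosome IV is an autosome, and worm autosomes have central parts rich in conserved genes, flanked by outer parts with more repeats and more recombination. Worm chromosomes have no single point centromere, so outer parts are counted here from each end. Chromosome IV also carries most of the genes for the small germline RNAs known as piRNAs. No sequence, gene or promoter is given for any region, because no genome or gene positions of the WS220 build, the build of the lists, were used.

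The replicate lists are much longer than the combined list and differ from each other along IV. Replicate 1 held 5565 regions on IV and replicate 2 held 3167, and these covered 2.36 and 1.27 Mb of it, whereas the 383 combined regions covered 0.164 Mb. Regions are ranked within a list by the authors' deposited score, which has no stated unit, and rank 1 is the best. On IV the highest score was shared by 152 combined regions, 190 replicate 1 regions and 16 replicate 2 regions. Over the whole lists it was shared by 991, 1332 and 112 regions. Ranks within each of these ties follow only the number in the region's name. Ranks in lists of different length are not on one scale. The length of IV, 17489881 bp, was measured to the furthest end of any region in the 3 lists and can only be too short.

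Chromosome IV was sparsely occupied in the combined list. It held 21.9 regions per Mb (95% exact Poisson interval 19.8 to 24.2), against 25.8 per Mb on the other chromosomes together. The ratio was 0.850 (95% exact interval 0.760 to 0.948) and passed the exact binomial test (two-sided, p = 0.00324, Benjamini-Hochberg adjusted over 4 tests 0.0130). The test takes regions as independent, which neighbors need not be. The deficit was not against each chromosome. Against chromosome V, the ratio was 1.52 (1.30 to 1.77), and against X it was 0.913 (0.793 to 1.05, exact binomial p = 0.205). Against I, II and III it was 0.622 (0.544 to 0.711), 0.836 (0.725 to 0.964) and 0.635 (0.554 to 0.728). These 5 comparisons were added after the data were seen and are not adjusted.

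The replicate lists gave opposite directions for IV as wholes and the same direction in their best parts. Replicate 1 had 318 regions per Mb on IV and 295 on the other chromosomes, a ratio of 1.08 (1.05 to 1.11, exact binomial p = 4.53e-07). Replicate 2 had 181 per Mb on IV and 192 on the other chromosomes, a ratio of 0.943 (0.908 to 0.980, exact binomial p = 0.00272). Neither p-value is adjusted. When each list was shortened to as many of its best regions as the combined list holds, replicate 1 gave a ratio of 0.806 (0.719 to 0.901) and replicate 2 one of 0.824 (0.736 to 0.920). Both shortened lists therefore had fewer regions on IV than its length would give, as the combined list had.

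The share of regions that lay on IV moved with rank, most plainly in replicate 1. IV makes up 17.4% of the summed chromosome lengths. Replicate 1 placed 15.3% (95% Wilson interval 12.4 to 18.8%) of its best 500 ranks on IV, 14.2% (12.5 to 16.04%) of ranks 1001 to 2500 and 19.2% (18.1 to 20.3%) of ranks 5001 to 10000. The share then kept near that level, at 19.2% for ranks 10001 to 19048 and 19.2% for ranks 19049 to 30000. Replicate 2 placed 13.6% (10.9 to 16.9%) of its best 500 ranks on IV and 17.5% (16.7 to 18.3%) of ranks 10001 to 19048. No test was made of these steps. Low-ranked replicate 1 regions were thus the ones that took IV above its share of length.

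**Figure D1:**
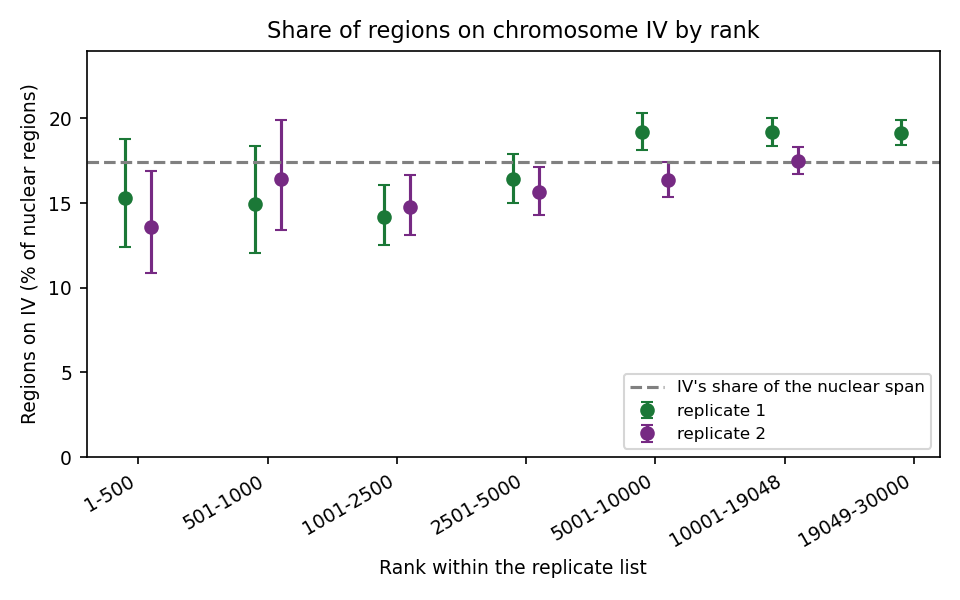
Share of nuclear regions on chromosome IV (y axis, %) in successive rank classes of each replicate list (x axis), with points for replicate 1 in green and replicate 2 in purple and bars for 95% Wilson intervals. The dashed line is the 17.4% of length that IV makes up; replicate 1 lies below it in ranks 1001 to 2500 (14.2%) and above it in ranks 5001 to 10000 (19.2%).

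Combined regions were found along the whole of IV. The first began at 51202 and the last ended at 17461792 (WS220), 28089 bp from the end of the chromosome as measured here. Each of the 17 whole 1-Mb bins held at least 10 regions, and the mean was 21.9 ± 7.24 (SD, n = 17 bins). Relative to the mean, the spread among bins of IV was 33%, between the 19.7% of X and the 39.9% of V. The exact Poisson intervals of neighboring bins overlapped in every case.

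The densest bin ran from 11 to 12 Mb and held 37 regions (95% exact Poisson interval 26.1 to 51.0). The bins from 7 to 8 Mb and from 9 to 10 Mb followed with 30 each (20.2 to 42.8). At the left end, the bin from 0 to 1 Mb held 29 regions, about as many as the central bins. The sparsest bins lay near the right end, from 16 to 17 Mb with 10 regions (4.80 to 18.4) and from 15 to 16 Mb with 11 (5.49 to 19.7). The third was on the left side, from 2 to 3 Mb, with 14 (7.65 to 23.5). With bins shifted by 500 kb the densest held 30 regions.

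The 2 replicates disagreed about these same places when taken whole. Over 15 to 17 Mb, where the combined list averaged 10.5 regions per Mb, replicate 1 averaged 393 per Mb and replicate 2 averaged 163. Over 7 to 10 Mb, where the combined list averaged 29.3, replicate 1 averaged 230 and replicate 2 averaged 198. The combined list and replicate 2 were thus higher at 7 to 10 Mb than at 15 to 17 Mb, and replicate 1 was lower. For each replicate 2 region there were 2.84 replicate 1 regions at 2 to 3 Mb and 1.02 at 7 to 8 Mb, the extremes among the whole bins. Across the 17 whole bins of IV, Pearson's r was -0.138 between the replicates (Spearman's rho -0.236). It was 0.70 between the combined list and replicate 2 (rho 0.759) and -0.576 between the combined list and replicate 1 (rho -0.610). On the other chromosomes, r between the combined list and replicate 1 ran from -0.418 on III to 0.720 on X. Between the replicates r was lower than on IV on I (-0.441), II (-0.274) and III (-0.260), and higher on V (0.138) and X (0.552). A negative r between the whole replicate lists was therefore not particular to IV. Between the combined list and replicate 2, r elsewhere ran from 0.553 on X to 0.895 on V. These correlations describe bins of the same chromosome, which are not replicates, and the combined list may share its libraries with both replicate lists.

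**Figure D2:**
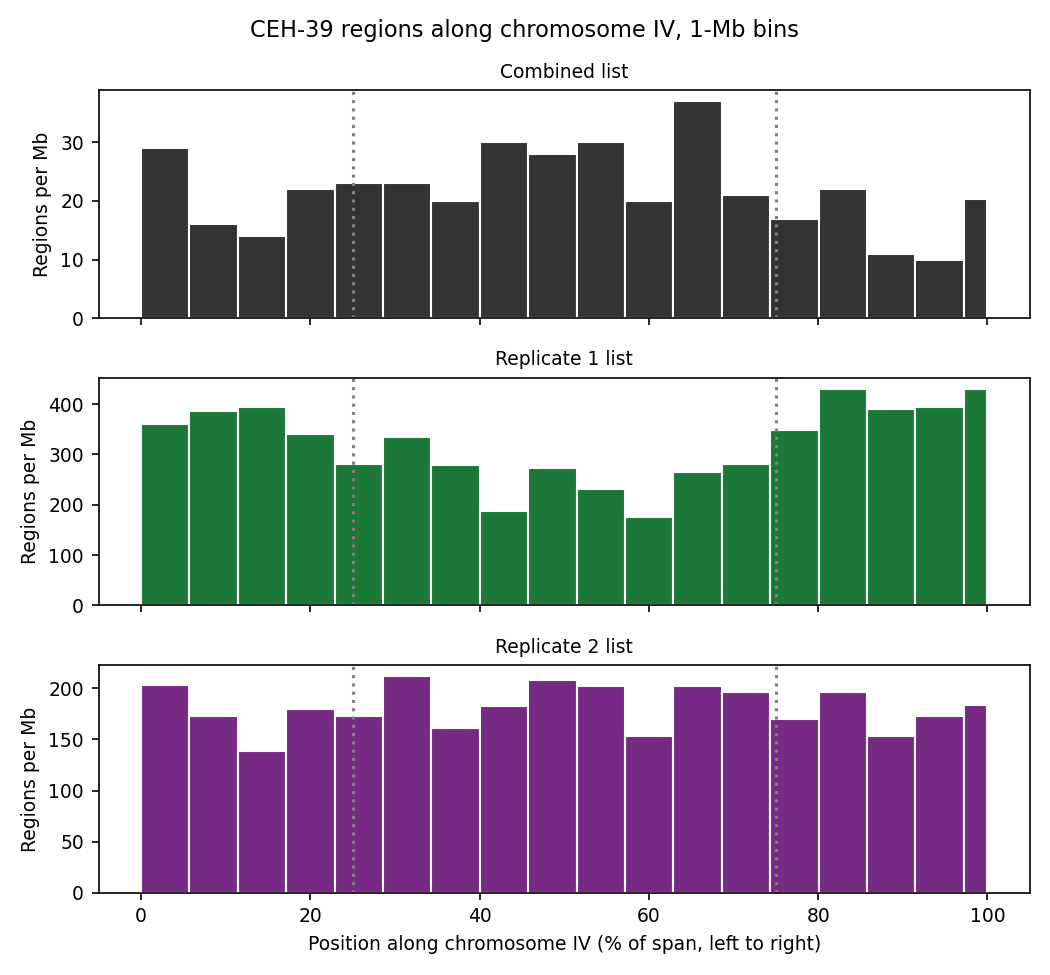
Regions per Mb (y axes, separate scales that start at 0) in 1-Mb bins along chromosome IV (x axis, % of its length), for the combined, replicate 1 and replicate 2 lists from top to bottom; the last bin is partial and dotted lines bound the central 50%. Replicate 1 is lowest in the middle and highest toward the ends, while the combined list falls to 10 and 11 regions in the last whole bins.

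At equal list length the 2 replicates drew similar profiles. Among the best regions of each, cut to the length of the combined list, r across the 17 bins of IV was 0.816 between the replicates (rho 0.752), and it was 0.965 and 0.872 between the combined list and the shortened replicates 1 and 2. At 11 to 12 Mb, the densest combined bin, the shortened lists held 33 regions in replicate 1 and 40 in replicate 2, their highest counts on IV. At 15 to 16 Mb they held 11 and 8, and at 16 to 17 Mb they held 9 and 17. The shares of replicate 1 regions that overlapped replicate 2 ran from 23.5% at 15 to 16 Mb to 44.4% at 7 to 8 Mb. The number of such replicate 1 regions per bin had r = 0.109 with the combined count.

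The central 50% of IV held 227 combined regions, or 59.3% of them (95% Wilson interval 54.3 to 64.1%). On the other autosomes 56.5% were central, a difference that did not pass Fisher's exact test (two-sided, p = 0.332, adjusted over 4 tests 0.665). The central part had 25.96 regions per Mb (95% exact Poisson interval 22.7 to 29.6), the left outer part 20.1 (16.1 to 24.8) and the right outer part 15.6 (12.1 to 19.7). The right outer part was thus below the center by more than counting error, whereas the intervals of the left outer part touched both others. Replicate 1 had the reverse order on IV, with 257 regions per Mb in the center, 359 in the left and 399 in the right outer part. The center was the sparsest part of replicate 1 on every other chromosome as well. Replicate 2 was nearly even on IV, with 189, 170 and 176. In replicate 1 the central share on IV was 47.4% in the best 500 ranks, 67.6% at ranks 501 to 1000 and 37.04% at ranks 10001 to 19048. In replicate 2 these classes had 54.4%, 62.2% and 49.4% in the center, so its best class was not the most central. In replicate 1 the first 2 classes lie within the tie of 1332 regions at its highest score. Only the number in the name separates them.

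The longest stretch of IV without a combined region ran from 16024495 to 16398216, a length of 374 kb. It was not empty in the replicates, which placed 137 regions of replicate 1 and 64 of replicate 2 inside it. These counts give 367 and 171 regions per Mb, against 318 and 181 on all of IV. Of the 137 replicate 1 regions, 35 overlapped one of replicate 2, against 1791 of 5565 on all of IV. The best regions in this stretch ranked 3204 in replicate 1 and 329 in replicate 2. The next stretch, from 15647014 to 15984179 (337 kb), lay just to its left and held 137 and 48 replicate regions, the best at ranks 3288 and 2720. The third, from 4810793 to 5076436 (266 kb), held 64 and 34, with best ranks of 3414 and 1450. The replicate 1 regions in the 3 stretches had median ranks of 17452 to 21866 in a list of 30000. Low ranks were common on all of IV, as they were in the whole list. Of the 5565 replicate 1 regions on IV, 1736 had ranks 10001 to 19048 and 2098 had ranks 19049 to 30000. Of all 29978 nuclear replicate 1 regions, 9048 and 10952 lay in these classes, so the shares on IV were near those of the list.

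Stretches of at least 100 kb without a combined region numbered 49 on IV and took up 44.04% of its length. The same measure was 60.8% on V, 39.8% on II, 35.9% on X, 21.1% on I and 18.8% on III. Of the 49 stretches, 10 reached 200 kb, against 17 on V, 6 on II, 3 on III, 3 on X and 2 on I. IV thus came second to V in both measures but was closer in value to II. The replicate lists, which are longer, had no stretch on IV above 136018 bp in replicate 1 or 79655 bp in replicate 2.

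The typical distance between neighboring combined regions on IV was 27.3 kb from center to center (median of 382 distances, 95% exact interval 21.3 to 31.7 kb). The mean was 45.6 kb and the middle 50% of distances ran from 7.59 to 65.05 kb, so short and long distances were mixed. The median was 26.1 kb on X, 20.2 kb on II, 17.1 kb on I, 15.8 kb on III and 42.5 kb on V. The interval of IV overlapped those of X and II and lay above those of I and III and below that of V. As a share of the mean, the median was 59.8% on IV and 52.7 to 63.8% on the others.

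Close neighbors were about as common on IV as on most other chromosomes. On IV, 38 of the 383 regions (9.92%, 95% Wilson interval 7.31 to 13.3%) had another region's center within 1 kb and 129 (33.7%, 29.1 to 38.6%) within 5 kb. On the other chromosomes the shares within 5 kb ran from 24.2% on V to 39.4% on I. On IV 11 pairs of neighbors overlapped, which left 372 separate loci, none with more than 2 regions. When regions whose centers lay within 5 kb of the next were chained, 254 stood alone, 45 chains had 2 members, 9 had 3 and 3 had 4.

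The 3 longest chains each packed 4 regions into a few kilobases. The chain from 5076437 to 5079287, which ends the third empty stretch on its right, had combined ranks of 1228 to 2419. The chain from 9770752 to 9773784 had a best rank of 358, and 3 of its 4 regions overlapped both replicates. These 2 chains each include regions that overlap one another. In the chain from 6321664 to 6329352 the best rank was 231 and all 4 regions overlapped both replicates. The 100-kb window with the most regions held 12, between 11026104 and 11125966 in the densest bin, and 10 of these overlapped both replicates. The corresponding maximum was 9 on V and 14 on III. Some of the 12 overlap one another, as do chrIV:11111093-11111556 and chrIV:11111300-11111763, which were both found in replicate 1 only.

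**Figure D3:**
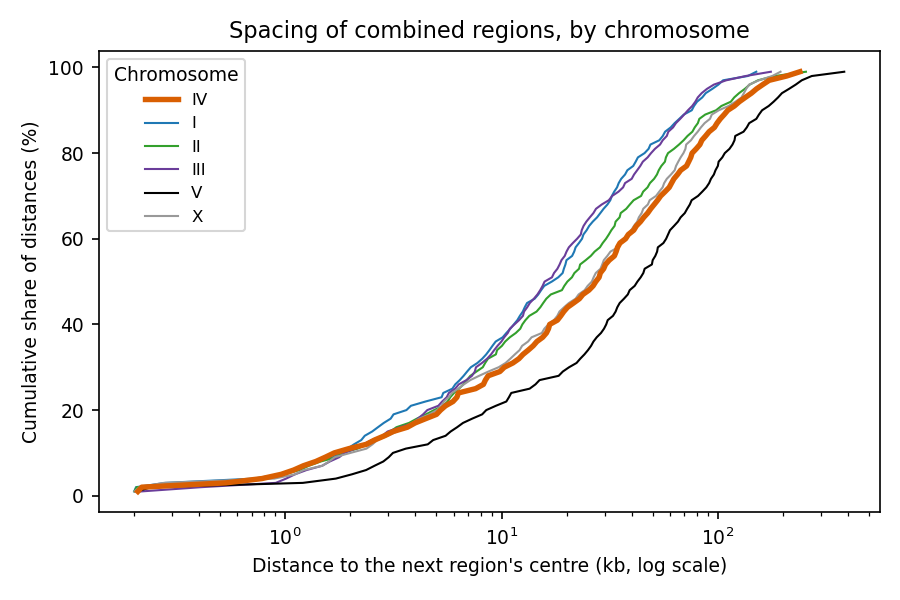
Cumulative share of distances between neighboring combined regions (y axis, %) against the distance from center to center (x axis, kb, log scale), 1 line per chromosome with IV thick and orange. The median of IV, 27.3 kb, is close to the 26.1 kb of X and lies between the 15.8 kb of III and the 42.5 kb of V, whereas at short distances the lines of several chromosomes cross.

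The highest-ranked combined regions on IV were spread over its length, and all 15 named here overlapped both replicates. The first, at chrIV:4749933-4750192, had combined rank 7 and ranks of 20 in replicate 1 and 4 in replicate 2. The second, at chrIV:8432804-8433115, had combined rank 11, replicate 1 rank 5 and replicate 2 rank 60. Among the combined regions on IV, the first had the best rank in replicate 2 and the second the best in replicate 1. The third lay at chrIV:12032495-12032718 (combined rank 24, replicate ranks 30 and 52). The fourth lay near the left end, at chrIV:1659145-1659375 (rank 40, replicate ranks 49 and 44), and the fifth near the right end, at chrIV:17278397-17278648 (rank 54, replicate ranks 74 and 22). These 5 were in the best 100 ranks of each replicate.

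The sixth, at chrIV:7575223-7575490 (combined rank 57), had rank 27 in replicate 1 and rank 980 in replicate 2. The first of these ranks lies within the replicate 1 tie at the highest score, and the second lies below the replicate 2 tie. The seventh lay at chrIV:654797-655032 (rank 80, replicate ranks 61 and 224). The next 2 were at chrIV:4650686-4650941 (rank 83, replicate ranks 82 and 168), 99.0 kb left of the first, and at chrIV:8333989-8334283 (rank 85, replicate ranks 125 and 56), 98.5 kb left of the second. Then came chrIV:13240544-13240771 (rank 102, replicate ranks 118 and 112) and chrIV:4445781-4445976 (rank 103, replicate ranks 98 and 388). This last region, the eighth and the first lay within a stretch of 304 kb.

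The twelfth, at chrIV:10085772-10085975 (combined rank 112), had rank 111 within the replicate 1 tie and rank 978 below the replicate 2 tie, like the sixth. It forms the right edge of a 201-kb stretch without any combined region. Of the remaining regions, those at chrIV:11026104-11026269 (rank 115, replicate ranks 269 and 37) and chrIV:11119147-11119294 (rank 120, replicate ranks 147 and 134), fell in the densest 100-kb window. The last, at chrIV:14033892-14034084 (rank 142), stood at 383 in replicate 1 and at 11 in replicate 2. All 15 were in the best 500 ranks of replicate 1 and 13 were in the best 500 of replicate 2. Of the 15, 10 lay in the central 50%. A combined region can overlap several regions of a replicate, as 122 on IV did in replicate 1 and 83 in replicate 2, and the best of their ranks is given.

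**Figure D4:**
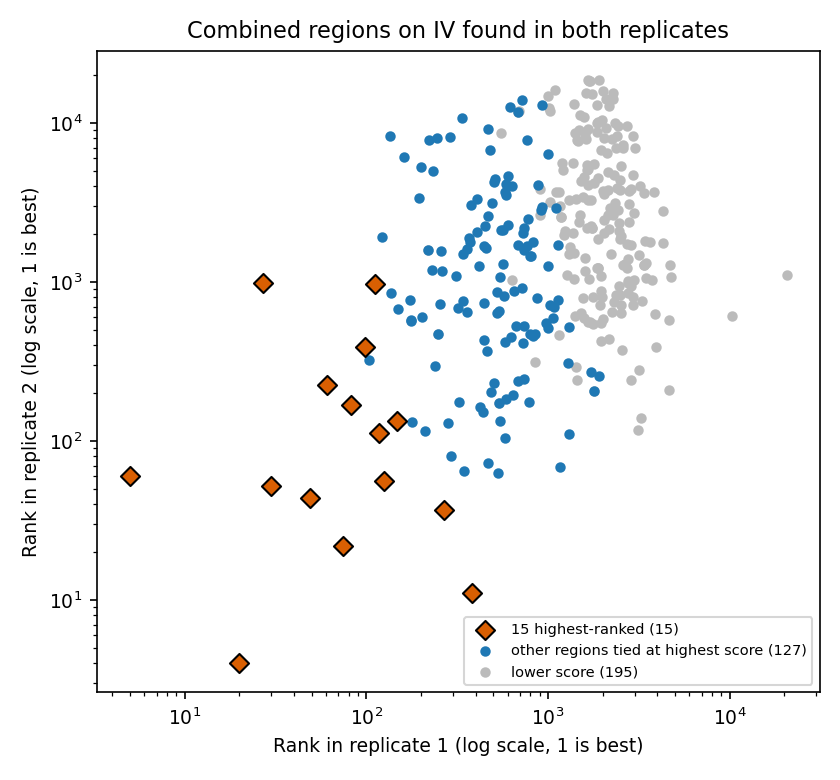
Rank in replicate 1 (x axis, log scale) and in replicate 2 (y axis, log scale) of the 337 combined regions on IV that overlap both replicates, 1 point per region. The 15 highest-ranked (diamonds) lie at ranks 5 to 383 in replicate 1 and 4 to 980 in replicate 2, and points spread more widely along the replicate 2 axis.

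The 15 highest-ranked regions were also narrow, at 148 to 312 bp with a median of 231 bp. They come first within the tie by the number in the name only. All 152 regions on IV at the highest score had a median width of 464 bp. That is the list's usual width, which 342 of the 383 regions on IV (89.3%) had. Altogether 41 regions on IV (10.7%, 95% Wilson interval 7.99 to 14.2%) were narrower than that, compared with 9.29% on the other chromosomes. Of these 41, 40 shared the highest score, as did 196 of the 198 narrower regions on the other chromosomes. The narrowest on IV, of 116 bp, lay at chrIV:15471548-15471663 and chrIV:11635768-11635883, and the narrowest elsewhere were also of 116 bp. No region on IV was wider than 464 bp. The best-ranked region of usual width on IV had combined rank 164, also within the tie.

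Scores on IV ran like those of the rest of the list. The 152 regions on IV that shared the highest score made up 39.7% of its regions, against 39.4% on the other chromosomes (839 of 2132) and 39.4% in the whole list. This difference did not pass Fisher's exact test (two-sided, p = 0.910, adjusted over 4 tests 1). Of the regions on IV, 79 were in the best-ranked 20% of the list and 84 in the lowest-ranked 20%. Of the regions at the highest score 55.3% lay in the central part of IV, and of those below it 61.9%.

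Overlap of the combined regions with the replicates was the same on IV as elsewhere to within counting error. On IV 337 of 383 (87.99%, 95% Wilson interval 84.4 to 90.9%) overlapped a region of each replicate by at least 1 bp, against 1876 of 2132 (87.99%, 86.5 to 89.3%) on the other chromosomes. In the whole list the share was 88.0%. The difference did not pass Fisher's exact test (two-sided, p = 1, adjusted over 4 tests 1). Overlap with both fell with rank on IV, with 97.5% (91.2 to 99.3%) of regions in the best-ranked 20% of the list and 78.6% (68.7 to 85.99%) in the lowest-ranked 20%. On the other chromosomes the best-ranked 20% had 98.8% and the lowest-ranked 20% had 77.6%. The best-ranked 20% lies wholly within the tie at the highest score. By score, the share on IV was 93.4% (88.3 to 96.4%) in the 152 tied regions and 84.4% (79.2 to 88.5%) below the tie. Elsewhere 806 of the 839 tied regions overlapped both. The source field of all 3 lists names the irreproducible discovery rate, a method that uses agreement between replicates, and how it was applied is not stated. Support of combined regions by each replicate may therefore follow from that method, and it is given as a description.

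**Figure D5:**
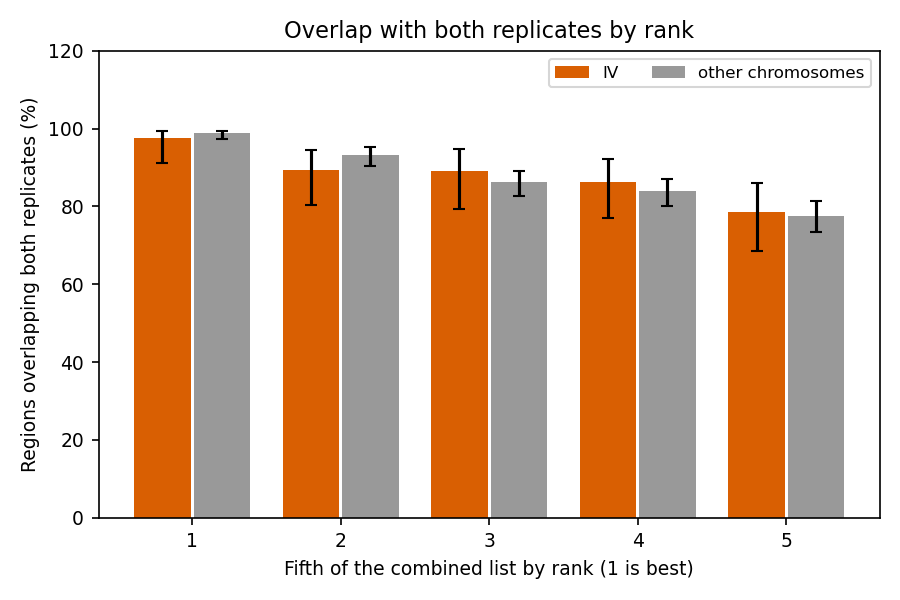
Share of combined regions that overlap both replicates by at least 1 bp (y axis, %) in 5 successive parts of the combined list by rank (x axis), on IV in orange and on the other chromosomes in grey, with 95% Wilson intervals. On IV the share is 97.5% in the first part and 78.6% in the last, and the intervals of IV and the others overlap in each part.

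The 46 regions on IV without support from both replicates were nearly all missing from replicate 2. Of them, 45 overlapped replicate 1 only, 1 overlapped replicate 2 only and 0 of 383 overlapped neither (95% Wilson upper bound 0.993%). The share found in replicate 1 only was 11.7% (95% Wilson interval 8.90 to 15.4%) on IV and 11.4% (10.1 to 12.8%) on the other chromosomes, where 13 regions overlapped replicate 2 only and 1 overlapped neither. The best of the 45 lay at chrIV:3294705-3294825 (combined rank 321, replicate 1 rank 181), chrIV:3338821-3339003 (rank 341, replicate 1 rank 198) and chrIV:4405932-4406395 (rank 687, replicate 1 rank 564). The first 2 are 44.0 kb apart. Of the 45, 10 shared the highest score, and their replicate 1 ranks were between 181 and 2055, with a median of 1203. The nearest replicate 2 region lay at a median distance of 924 bp from these 45 and within 1000 bp of 25 of them. Replicate 2 had 181 regions per Mb on IV, and how often other places on IV have one this near was not measured. Elsewhere the median distance was 903 bp, with 124 of 242 regions within 1000 bp.

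The single region found in replicate 2 only lay at chrIV:12567215-12567678. It had combined rank 2239 and replicate 2 rank 2326, and the nearest replicate 1 region was 765 bp away with rank 12090. A further 2 regions, picked after their values were seen, overlapped both replicates, but replicate 1 far down its list. One, at chrIV:8375378-8375841, had combined rank 1021, replicate 2 rank 1102 and replicate 1 rank 20628. The other, at chrIV:14822357-14822820, had combined rank 2380 and ranks 609 in replicate 2 and 10344 in replicate 1.

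Replicate 1 regions on IV lay closer to the combined regions they overlapped than replicate 2 regions did. Each replicate was measured on the combined regions that overlapped it, so the 2 sets differ. Where several replicate regions overlapped, the smallest distance was taken. The centers were a median of 10.0 bp apart in replicate 1 (382 regions) and 36.0 bp apart in replicate 2 (338 regions), and they lay within 50 bp for 87.4% and 60.9%. On the other chromosomes the medians were 9.0 and 39.0 bp. Against as many of the best regions of each replicate as the combined list holds, 328 combined regions on IV overlapped replicate 1 and 209 overlapped replicate 2. These were 85.9% and 61.8% of the regions on IV that overlapped the whole replicate 1 and replicate 2 lists, and the same shares elsewhere were 88.1% and 60.1%.

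Few of the replicate regions on IV were in the combined list. Of the replicate 1 regions on IV, 485 (8.72%, 95% Wilson interval 8.00 to 9.49%) overlapped a combined region, against 11.1% (10.7 to 11.5%) of those on the other chromosomes. Replicate 2 gave 405 (12.8%, 11.7 to 13.996%) on IV and 13.8% (13.3 to 14.4%) elsewhere. Within rank classes IV and the rest lay closer, since 81.6% of the replicate 1 regions at ranks 1001 to 2500 on IV and 78.9% of those elsewhere overlapped a combined region, and 1.79% on IV and 1.90% elsewhere did so at ranks 10001 to 19048. These differences were not tested. All 150 replicate 1 regions on IV in the best 1000 ranks overlapped a combined region.

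Overlap between the replicates themselves was 32.2% (95% Wilson interval 30.97 to 33.4%) of replicate 1 regions on IV and 36.2% (35.6 to 36.8%) of those elsewhere. For replicate 2 regions it was 51.8% (50.1 to 53.6%) on IV and 50.4% (49.6 to 51.2%) elsewhere. The lowest-ranked part of replicate 1, from rank 19049, had 21.1% on IV and 25.5% elsewhere, while its best 500 ranks had 93.4% on IV and 95.5% elsewhere.

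Some highly ranked regions of replicate 2 on IV were absent from the combined list. Of its best 500 ranks, 94.1% on IV and 92.8% on the other chromosomes overlapped a combined region, and of ranks 501 to 1000, 70.7% on IV and 69.1% elsewhere did. The best one on IV outside that list, at chrIV:9250299-9250714, ranked 245 and overlapped no replicate 1 region. The next 2, at chrIV:16382290-16382705 (rank 329) and chrIV:4441231-4441646 (rank 336), overlapped replicate 1 regions of rank 4088 and 5925. The second of these 3 lies within the longest empty stretch. Replicate 2 had 28 such regions on IV among its best 1000 ranks and replicate 1 had 0. In replicate 1, 99.5% of the best 500 ranks and 99.8% of ranks 501 to 1000 on the other chromosomes overlapped a combined region. The best replicate 1 region on IV outside the combined list, at chrIV:10936821-10937280, ranked 1156 and overlapped a replicate 2 region of rank 12014.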

How the data were processed

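The authors deposited a score for each binding region in 1 list per ChIP replicate and 1 combined list, with positions on WormBase WS220, per the file headers. A field of each list reads as SPP peak calling via the irreproducible discovery rate, a method based on rank agreement between replicates. Aligner, versions, thresholds and use of inputs were not given in the sources used here. This score ranked regions within a list only, with ties in the order of the number in the name. No read counts were used, so depth is unknown. Regions on mitochondrial DNA were left out. Groups came from sample titles. Regions sharing at least 1 bp counted as overlapping. The 4 main exact binomial and Fisher's exact tests were adjusted together by the Benjamini-Hochberg method. The p-values of all alternatives are not adjusted. All tests take regions as independent. Intervals are 95% exact or Wilson and cover counting error only. Work used Python 3.11.15, numpy 2.4.6, pandas 2.3.3, scipy 1.17.1 and matplotlib 3.10.9, and the density and overlap steps were tested on simulated data. The chromosome, the tests and the rule for named regions (the 15 highest, those lacking a replicate, the extreme bins, stretches, windows and widths) were chosen with earlier results of these data known.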

Additional observations from a re-analysis of the deposited data

How the results depend on the processing

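The lower density on IV kept its direction in the upper 50% of the combined list by score, with joined loci, against the other autosomes, without V and in replicate lists cut to the length of the combined one (ratios 0.740 to 0.850, each past the exact binomial test). In single replicate lists the ratio ran from 0.943 (without replicate 1) to 1.08 (without replicate 2). Against single chromosomes, an alternative added after the data were seen like the shortened replicate lists, it was 1.52 against V and 0.913 against X, where it no longer passed. Overlap with both replicates on IV, where the main difference from the other chromosomes was near 0, changed sign without passing the test with an overlap of at least 50% of the shorter region (83.6% on IV, 83.2% elsewhere), with centers within 100 bp (68.9% on IV, 66.3% elsewhere) and with the best-scoring 50% of each replicate (79.4% on IV, 77.5% elsewhere). It was 43.9% on IV and 45.7% elsewhere with lists cut to the length of the combined one, which shortens the lists by construction. The central share of IV was 40.4% in replicate 1 (41.6% on the other autosomes, Fisher's exact p = 0.103). In replicate 2 it was 52.2% (54.9% on the other autosomes, Fisher's exact p = 0.00616). Both were below the other autosomes, opposite in direction to the combined list, whose own difference did not pass. Only the replicate 2 difference passed, and the cause was not tested. Median spacing on IV was 54603.5 bp in the upper 50% of the combined list. The longest empty stretch was 842861 bp there, 136018 bp in replicate 1 and 79655 bp in replicate 2. The densest bin held 30 regions with bins shifted by 500 kb, 430 in replicate 1 and 212 in replicate 2. The replicate values follow list length by construction. Leaving out a replicate gives no overlap with both. No paired analysis was possible because the inputs have no region list analyzed here.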
